A study of Mus musculus with 21 samples.

Results

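The mRNA levels of 9 mouse genes of inflammasome signalling were followed in macrophage-like cells and in liver. They were chosen by symbol, as the sensors Nlrp3, Aim2, Nlrc4 and Mefv, the adaptor Pycard, the caspases Casp1, Casp4 and Casp8 and the pore-forming effector Gsdmd, out of 35550 genes listed for the cells. Of these, 7 had a mean of at least 1 TPM (the deposited unit of transcript abundance, scaled for transcript length) in both cell experiments and were tested. Pycard and Mefv did not reach it. The liver values list 5298 genes, 5 of which belong to the set.

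The study set out to relate transglutaminase 2 and vimentin to macrophage activation in sepsis. It measured RNA in 21 libraries, 14 of the mouse macrophage-like line RAW264.7 and 7 of mouse liver. At 24 h wild-type (WT) cells had received PBS, LPS at 1 µg/mL or LPS with CTM at 0.5 mM, with 2 libraries each. At 12 h, WT cells and cells with a vimentin knockout (Vim-KO) had received PBS or LPS at 1 µg/mL, again with 2 libraries each. LPS, from the outer membrane of Gram-negative bacteria, activates macrophages, and CTM is named as the labels give it. Liver came from C57BL/6J mice injected intraperitoneally, which were WT mice given PBS, LPS at 30 mg/kg or that LPS with CTM at 100 mg/kg, a WT pair given LPS without or with macrophage depletion, and transglutaminase 2 knockout (TG2-KO) mice given PBS or LPS at 30 mg/kg, with 1 library each. The labels state no dose of LPS for the depletion pair, no method of depletion, no age or sex of the mice, no time after LPS in mice, and not whether the Vim-KO line is 1 clone. They do not say whether 2 libraries of a group were separate cultures. Each p-value rests on how far libraries of the same group spread, shared over all groups of an experiment, and that spread may be technical.

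Inflammasomes are protein assemblies in the cytosol that turn the detection of microbes or cell damage into the activation of inflammatory caspases. A sensor such as NLRP3, which responds to many kinds of membrane and ion disturbance, AIM2, which binds double-stranded DNA, NLRC4, which acts with NAIP proteins on bacterial flagellin and secretion systems, or pyrin, the product of Mefv, recruits caspase-1, in most cases through the adaptor ASC, the product of Pycard. Caspase-11, which the mouse gene Casp4 encodes, binds cytosolic LPS itself. Both caspases cleave gasdermin D, whose fragment forms pores in the plasma membrane, and caspase-1 matures interleukin-1β and interleukin-18, while caspase-8 starts apoptosis and can also enter these assemblies.

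The libraries behaved as their labels say on the targeted genes. Vim ranged from 1375 to 1930 TPM in the WT libraries of the 12 h experiment and from 17.0 to 33.0 TPM in the Vim-KO ones, and liver Tgm2 ranged from 35.7 to 429 TPM in WT and stood at 0.74 and 15.5 TPM in TG2-KO. Of 8 macrophage markers, 7 reached 1 TPM in the cells, with a summed level of 8934 to 17475 TPM per library. None of 6 Kupffer cell, 5 hepatocyte, 4 T and NK cell or 3 B cell markers reached 1 TPM there, while 3 of 7 neutrophil markers (sum 5.05 to 911.7 TPM per library), 1 of 4 monocyte and 1 of 4 endothelial markers did. Log2 levels of the 2 libraries of a group correlated at 0.986 to 0.990 across genes. TPM keep no read counts, so the depth behind each value is unknown. LPS moved the median gene by -0.23 on the log2 scale at 24 h, and by -0.35 (WT) and -0.23 (Vim-KO) at 12 h, so a smaller fall than these values is not a fall relative to the other genes of the library.

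Without LPS the genes of the set spanned a wide range of levels. In the 24 h PBS libraries Aim2 (101.8 and 98.6 TPM) and Gsdmd (99.7 and 97.96 TPM) were highest and their libraries overlapped. Nlrp3 followed at 83.3 and 77.9 TPM, then Casp1 at 41.7 and 43.2 TPM and Casp8 at 40.3 and 39.4 TPM, then Casp4 at 14.5 and 12.8 TPM. Nlrc4 was lowest of the tested genes at 3.68 and 3.96 TPM. Casp1 and Casp8 lay within 4 TPM of each other, and the other neighbours in this order did not overlap apart from Aim2 with Gsdmd. In the WT PBS libraries of the 12 h experiment the order was Gsdmd (115.5 and 110.5 TPM), Aim2 (88.9 and 104.7 TPM), Casp1 (83.9 and 82.0 TPM), Casp8 (56.9 and 55.5 TPM), Nlrp3 (53.9 and 53.3 TPM), Casp4 (11.8 and 10.8 TPM) and Nlrc4 (6.23 and 5.18 TPM). No neighbours overlapped there. Levels were not tested across the experiments, whose RNA was extracted on different dates.

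The adaptor was at or near 0 in this line. Pycard, on chromosome 7 from 127989708 to 127993867 (GRCm38, minus strand), stood at 0.877 TPM in 1 PBS library of the 24 h experiment and was listed at 0 in the other 13. Mefv, on chromosome 16 from 3707218 to 3718097 (minus strand), was listed at 0 in 12 libraries and stood at 0.0282 TPM in a WT PBS library and 0.0369 TPM in a Vim-KO LPS library, both at 12 h. A listed 0 can be a failed estimate, and no fold was computed for either gene.

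**Figure D1:**
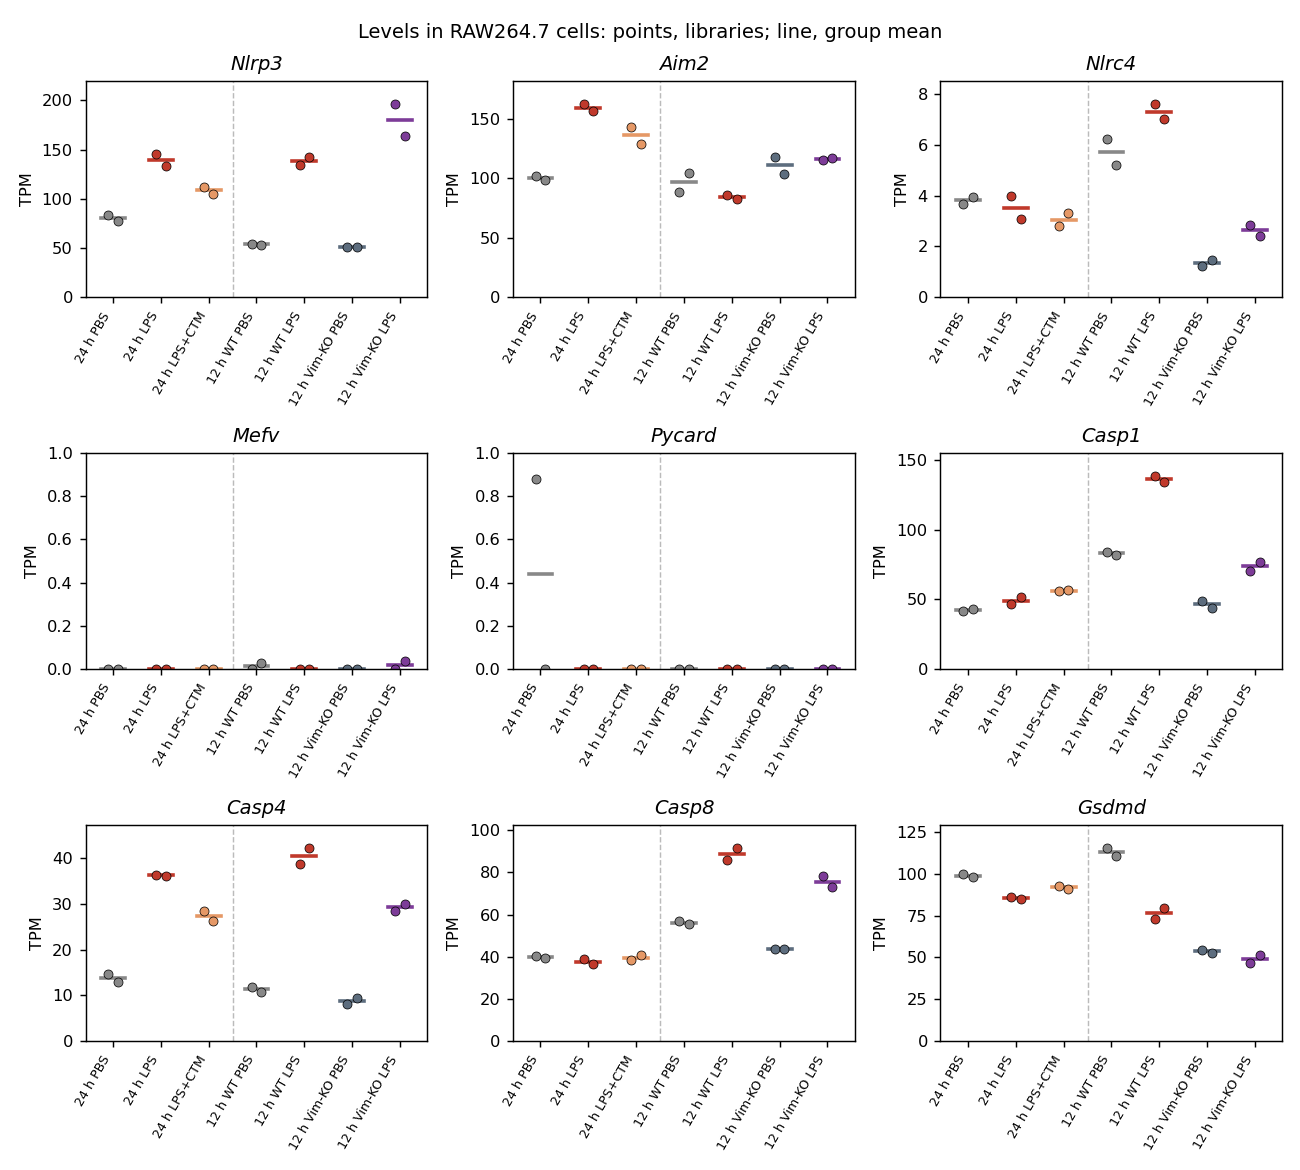
Level in TPM (y axis, linear from 0) of each of the 9 genes in the 7 groups of RAW264.7 cells (x axis); each point is 1 library, each line the mean of 2, and the dashed line separates the experiments. Pycard and Mefv stay below 1 TPM, Casp4 is higher in every LPS library than in every PBS library, and Nlrc4, Casp1 and Gsdmd are lower in Vim-KO than in WT cells under either treatment.

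LPS against PBS at 24 h raised 3 of the 7 tested genes and lowered 1, where 66% of the 11030 genes tested changed, 20.9% higher and 45.1% lower. After scaling each library by the median ratio of its genes, 4 were higher and none lower, and over all genes the higher share of the calls went from 31.6% to 50.4%. The genes that rose were 2 sensors and the LPS-binding caspase. Nlrp3, on chromosome 11 from 59541568 to 59566956 (plus strand), stood at 145.7 and 133.4 TPM with LPS against 83.3 and 77.9 TPM with PBS. The groups did not overlap, and the log2 change was 0.78 ± 0.073 (SE; limma, adjusted p = 7.96e-05). Aim2, on chromosome 1 from 173350879 to 173466040 (plus strand, overlapping Cadm3 on the minus strand), stood at 162.5 and 156.6 TPM against 101.8 and 98.6 TPM, a log2 change of 0.67 ± 0.068 (adjusted p = 1.24e-04). Both LPS libraries lay above both PBS libraries.

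Casp4, on chromosome 9 from 5308828 to 5336783 (plus strand), changed most of the set at 24 h. It stood at 36.3 and 36.2 TPM with LPS against 14.5 and 12.8 TPM with PBS, a log2 change of 1.35 ± 0.097 (adjusted p = 2.42e-05). Its upstream neighbour Casp1, which starts 5298517 and ends 5307265 on the same strand and chromosome, lies 1562 bases before it with no annotated gene between. Casp1 stood at 46.4 and 51.6 TPM against 41.7 and 43.2 TPM and did not pass as deposited (log2 change 0.20 ± 0.078, adjusted p = 0.0534). After the scaling its change was 0.45 (adjusted p = 3.4e-03), and without LPS library 2 it was 0.28 (adjusted p = 0.0255).

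The other 3 tested genes were flat or slightly lower at 24 h. Gsdmd, on chromosome 15 from 75862327 to 75867408 (plus strand), stood at 85.9 and 84.6 TPM with LPS against 99.7 and 97.96 TPM, a fall by 0.21 ± 0.057 on the log2 scale (adjusted p = 0.0137) that turned to 0.04 (adjusted p = 0.55) after scaling. It also lost its call without PBS library 1 (adjusted p = 0.0698). Casp8, on chromosome 1 from 58795374 to 58847503 (plus strand, overlapping Gm37760), stood at 38.9 and 36.5 TPM against 40.3 and 39.4 TPM, with a change of -0.08 ± 0.078 (adjusted p = 0.39) as deposited and 0.16 after scaling. Nlrc4, on chromosome 17 from 74425438 to 74459142 (minus strand), overlapped between the groups at 3.96 and 3.08 TPM against 3.68 and 3.96 TPM (log2 change -0.10 ± 0.18, adjusted p = 0.64, and 0.10 after scaling).

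Around the set, Il1b and Il1a had the largest rises of the pathway genes named at 24 h. Of 4 cytokine substrates, 3 were higher and 1 lower. Il1b went from a mean of 2.33 to 977 TPM (log2 change 8.21 ± 0.15), Il1a from a listed 0 to 294.5 TPM and Il33 from a listed 0 to 3.01 TPM. The lower one was Il18, named here after its values were seen, at 19.4 against 34.3 TPM (-0.79 ± 0.13, adjusted p = 1.22e-03). Of 18 other sensors and their relatives, 14 passed the filter, with 7 higher and 3 lower. Ifi204, a DNA-binding relative of Aim2, rose from 3.98 to 29.7 TPM (2.63 ± 0.11), and Nlrp10 fell from 9.2 to 0.955 TPM (-2.39 ± 0.19). Of 22 triggers and regulators, 19 were tested, 7 of them higher and 8 lower (8 and 6 after scaling). Zbp1, a sensor of Z-form nucleic acid, rose from 4.97 to 97.3 TPM (4.05 ± 0.14), while Txnip, whose protein binds thioredoxin and NLRP3, fell from 355 to 19.5 TPM (-4.13 ± 0.13). Of 12 other caspase and cell death genes, 11 were tested, 1 higher and 5 lower (3 and 5 after scaling). The gene higher as deposited was Mlkl, the pore-forming effector of necroptosis, at 33.3 against 5.05 TPM (2.51 ± 0.12).

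Of 10 inhibitors, 6 were tested, with 4 higher and 1 lower (4 and 0 after scaling). Il1rn, the interleukin-1 receptor antagonist, stood at 406.6 against 16.3 TPM (4.57 ± 0.12), and Cflar, which restrains caspase-8, at 125.1 against 43.4 TPM (1.5 ± 0.078). Of 11 gasdermin and membrane rupture genes, 4 were tested and 2 were higher. These were Ninj1, which ruptures the membrane after pore formation, at 142.9 against 106.7 TPM (0.42 ± 0.057), and the membrane repair gene Chmp4b at 209.7 against 127.7 TPM (0.71 ± 0.051). Reads of close relatives such as Ifi203, Ifi204 and Ifi207 can be split between them, and how that was done is not given in the sources used here.

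Adding CTM to LPS for 24 h lowered 3 of the 7 tested genes and raised none at the threshold, where 25.6% of all genes tested changed, 16.1% higher and 9.45% lower. The 3 are those that LPS itself had raised, in a comparison that uses the same LPS libraries. Nlrp3 stood at 112.3 and 105.1 TPM with CTM against 145.7 and 133.4 TPM with LPS alone (-0.36 ± 0.073, adjusted p = 0.0128). Casp4 stood at 28.5 and 26.2 TPM against 36.3 and 36.2 TPM (-0.39 ± 0.097, adjusted p = 0.0248). Aim2 stood at 143.4 and 129.0 TPM against 162.5 and 156.6 TPM (-0.23 ± 0.068, adjusted p = 0.0466). For each, both CTM libraries lay below both LPS libraries and above both PBS libraries. Leaving out 1 library changed these calls. None of the 3 passed without LPS library 2 (adjusted p from 0.0526 to 0.14) or CTM library 3 (0.088 to 0.25), and only Nlrp3 passed without LPS library 3 or CTM library 2; without either PBS library, Aim2 alone lost its call (0.0722 and 0.0735). Aim2 also did not pass without the mean-variance trend (0.11) or in a fit on the compared samples alone (0.068), and kept its call in 3 of 13 alternatives.

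The remaining 4 did not pass. Casp1 had its highest 24 h values with CTM, at 55.7 and 56.9 TPM, above both LPS libraries (0.20 ± 0.078, adjusted p = 0.11). Gsdmd stood at 92.8 and 91.0 TPM, between the LPS and the PBS libraries (0.11 ± 0.057, adjusted p = 0.21, and 0.02 after scaling). The median gene moved by 0.07 in this comparison as deposited. Casp8 (38.3 and 40.8 TPM) and Nlrc4 (2.81 and 3.30 TPM) overlapped with LPS alone. Their log2 changes were 0.07 (adjusted p = 0.55, and -0.01 after scaling) and -0.15 (adjusted p = 0.56).

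Against PBS, LPS with CTM left 4 of the 7 higher and none lower, where 52.9% of all genes changed, 17.4% higher and 35.5% lower. Casp4 was 0.95 ± 0.097 higher on the log2 scale (adjusted p = 2.51e-04), Aim2 0.44 ± 0.068 (adjusted p = 1.67e-03), Nlrp3 0.43 ± 0.073 (adjusted p = 2.55e-03) and Casp1 0.40 ± 0.078 (adjusted p = 4.67e-03). Casp8 (-0.01, adjusted p = 0.91), Gsdmd (-0.10, adjusted p = 0.16) and Nlrc4 (-0.25, adjusted p = 0.27) did not pass, and after scaling Casp8 was at 0.15 and Gsdmd at 0.06. The median gene moved by -0.16 in this comparison. Scaling took the higher share of all calls from 32.9% to 52.3%, and in the comparison of CTM with LPS alone from 63.1% to 44.9%.

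With CTM the cytokine genes were lower than with LPS alone in 3 of 4 cases. Il1a stood at 33.7 against 294.5 TPM (-3.10 ± 0.14) and Il1b at 208.6 against 977 TPM (-2.23 ± 0.15). Of the 6 inhibitors tested, 4 were lower, with Il1rn at 134.3 against 406.6 TPM (-1.59 ± 0.12) and Tnfaip3, an NF-kB restraining enzyme, at 12.1 against 37.4 TPM (-1.56 ± 0.12). Triggers and regulators went both ways, 7 higher and 6 lower of 19 (6 and 6 after scaling), with Txnip at 51.4 against 19.5 TPM (1.37 ± 0.13). No gasdermin or membrane rupture gene of 4 passed in this limma fit (0 at an unadjusted p under 0.05, and 1 lower after scaling). Of 14 sensors 2 were higher and 2 lower, or 1 and 4 after scaling.

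At 12 h LPS raised 4 of the 7 genes of the set in WT cells and lowered 1, where 70.9% of the 11115 genes tested changed, 17.8% higher and 53.1% lower. All 3 caspases were among the 4. Casp4 stood at 38.7 and 42.3 TPM with LPS against 11.8 and 10.8 TPM with PBS (log2 change 1.76 ± 0.10, adjusted p = 2.16e-06), Casp1 at 138.5 and 134.0 TPM against 83.9 and 82.0 TPM (0.71 ± 0.074, adjusted p = 6.33e-05), and Casp8 at 85.8 and 91.7 TPM against 56.9 and 55.5 TPM (0.65 ± 0.067, adjusted p = 5.77e-05). Nlrp3 stood at 134.6 and 142.4 TPM against 53.9 and 53.3 TPM (1.35 ± 0.088, adjusted p = 4.5e-06). For all 4, the lowest LPS library was above the highest PBS library. How many of all genes were separated in this way was not counted.

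Gsdmd moved the other way, and the remaining 2 sensors did not pass. Gsdmd stood at 73.1 and 79.3 TPM with LPS against 115.5 and 110.5 TPM with PBS, a fall by 0.56 ± 0.076 on the log2 scale (adjusted p = 2.6e-04) that was -0.19 (adjusted p = 0.0587) after scaling. Aim2 stood at 86.3 and 82.6 TPM against 88.9 and 104.7 TPM (-0.19 ± 0.094, adjusted p = 0.10, and 0.18 after scaling), and without WT PBS library 1 the change was -0.31 (adjusted p = 0.0334). Nlrc4 stood at 7.59 and 7.0 TPM against 6.23 and 5.18 TPM (0.31 ± 0.14, adjusted p = 0.0816). After scaling, 5 of the set were higher, Nlrc4 included (0.63, adjusted p = 4.2e-03), and none was lower, while the higher share of all calls went from 25.2% to 50.5%.

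Promoter sequence is shown for the 2 genes that LPS raised most at both times and for Casp1, the neighbour of one of them. RefSeq promoters (GRCm38.p6) were found for 8 of the 9 genes, Gsdmd being the one not matched, and only the 250 bases before the annotated start are printed, 5′ to 3′ on the gene's strand. Capitals mark matches on either strand to the 10-base NF-kB type motif. NF-kB is a transcription factor that LPS signalling activates. Of 2 annotated Casp4 promoters, the one printed is chr9:5308599-5308848 on the plus strand. It held 3 matches, 93, 92 and 39 bases before the start, and the first 2 overlap. The other, chr9:5308610-5308859, held the same 3 matches 104, 103 and 50 bases before its start. Of 2 annotated Nlrp3 promoters, chr11:59541319-59541568 on the plus strand held 1, 186 bases before the start, and the other held none. The Casp1 promoter, chr9:5298267-5298516 on the plus strand, held none, and neither did those of Aim2, Casp8, Pycard, Mefv and Nlrc4. Such a match is present in 7.25% of 32851 RefSeq mouse promoters of this length.
Casp4: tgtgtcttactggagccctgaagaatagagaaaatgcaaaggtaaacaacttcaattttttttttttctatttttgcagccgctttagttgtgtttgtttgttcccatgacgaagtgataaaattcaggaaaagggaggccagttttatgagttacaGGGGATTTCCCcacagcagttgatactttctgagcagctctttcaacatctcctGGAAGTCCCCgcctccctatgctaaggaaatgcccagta
Nlrp3: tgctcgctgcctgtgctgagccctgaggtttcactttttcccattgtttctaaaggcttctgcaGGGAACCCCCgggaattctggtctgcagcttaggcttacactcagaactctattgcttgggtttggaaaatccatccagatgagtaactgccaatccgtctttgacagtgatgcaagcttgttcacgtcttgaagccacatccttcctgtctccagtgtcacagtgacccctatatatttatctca
Casp1: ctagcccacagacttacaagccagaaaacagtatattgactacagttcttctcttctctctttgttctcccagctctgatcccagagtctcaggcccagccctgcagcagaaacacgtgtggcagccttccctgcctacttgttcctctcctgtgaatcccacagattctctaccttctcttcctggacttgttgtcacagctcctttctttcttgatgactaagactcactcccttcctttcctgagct

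Other motifs were searched in the same windows on both strands. The interferon response type motif (bound by IRF factors) and the STAT motif TTCNNNGAA had no match in any member's window, against 2.98% and 7.02% of all promoters. GAGGAAG, a PU.1 type motif (PU.1 is a transcription factor of macrophages), matched in Aim2, in Pycard and at a second annotated Nlrp3 start, against 10.6% of all promoters. A match is a description of letters, not a site in use.

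In Vim-KO cells LPS raised 5 of the 7 and lowered none, where 66.4% of all genes tested changed, 20.5% higher and 45.8% lower. Nlrp3 stood at 196.0 and 163.3 TPM with LPS against 50.9 and 51.0 TPM with PBS (log2 change 1.79 ± 0.088, adjusted p = 1.03e-06), the highest level of this gene in any group. Casp4 stood at 28.5 and 30.0 TPM against 8.14 and 9.39 TPM (1.64 ± 0.10, adjusted p = 3.25e-06), Casp8 at 78.1 and 73.1 TPM against 43.8 and 43.6 TPM (0.78 ± 0.067, adjusted p = 2.26e-05), and Casp1 at 70.7 and 76.8 TPM against 48.8 and 43.9 TPM (0.66 ± 0.074, adjusted p = 1.05e-04). Nlrc4 stood at 2.85 and 2.40 TPM against 1.24 and 1.45 TPM (0.63 ± 0.14, adjusted p = 4.87e-03). In these 5 genes the groups did not overlap, and the share of all genes without overlap was not counted.

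Aim2 and Gsdmd did not pass in Vim-KO cells. Aim2 overlapped between the groups, at 115.7 and 116.8 TPM with LPS against 118.3 and 103.7 TPM (0.07 ± 0.094, adjusted p = 0.54). Gsdmd stood at 46.6 and 51.5 TPM against 54.6 and 52.7 TPM (-0.13 ± 0.076, adjusted p = 0.17, and 0.13 after scaling). After scaling, 6 of the 7 were higher, Aim2 included (0.33, adjusted p = 0.0173), and the higher share of all calls went from 31.0% to 50.4%.

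Il1b, Il1a and Il33 rose in both genotypes, and Il18 rose in WT cells only. In WT cells 4 of 4 were higher, with Il1b at 2750 against 0.372 TPM (10.97 ± 0.070), Il1a at 1858 against 0.204 TPM (10.60 ± 0.12) and Il33 at 131 against 0.0163 TPM (7.01 ± 0.13). In Vim-KO cells 3 were higher and 1 lower, with Il1b at 559.5 against 0.037 TPM (9.08 ± 0.070), Il1a at 262 TPM against a listed 0 and Il33 at 3.72 TPM against a listed 0. Il18 stood at 45.9 against 32.1 TPM in WT (0.50 ± 0.084) and 14.7 against 17.6 TPM in Vim-KO cells (-0.25 ± 0.084, adjusted p = 0.0298). The median gene moved by -0.23 in Vim-KO cells, and Il18 was not among the lower calls there after scaling. A fall of Il18 relative to the other genes is therefore not shown in Vim-KO cells. Among the inhibitors, 5 of 7 tested were higher and 1 lower in WT cells, and 6 of 7 were higher in Vim-KO cells. Il1rn went from 33.6 to 2618 TPM in WT cells (6.24 ± 0.097) and from 0.80 to 18.1 TPM in Vim-KO cells (3.41 ± 0.097). Birc3, an inhibitor of apoptosis protein and ubiquitin ligase, went from 11.3 to 85.6 TPM in Vim-KO cells (2.81 ± 0.071).

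The other sensors went both ways in each genotype. Of 13 that passed the filter, 3 were higher and 6 lower with LPS in WT cells, and 7 higher and 2 lower in Vim-KO cells. After scaling these were 6 and 4 in WT, which turns the balance there, and 8 and 1 in Vim-KO cells. Nod2, a sensor of bacterial cell wall fragments, went from 2.35 to 9.48 TPM in WT (1.64 ± 0.15) and from 0.933 to 10.4 TPM in Vim-KO cells (2.55 ± 0.15). Of 21 triggers and regulators tested, 10 were higher in each genotype, with 8 lower in WT and 5 lower in Vim-KO cells (12 higher and 4 lower, and 13 and 5, after scaling). Zbp1 went from 14.0 to 91.99 TPM (2.64 ± 0.11) and from 5.11 to 107.1 TPM (4.15 ± 0.11). Of 11 other caspase and cell death genes, 3 were higher and 5 lower in each genotype as deposited, and 4 and 4 in WT and 6 and 4 in Vim-KO cells after scaling.

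**Figure D2:**
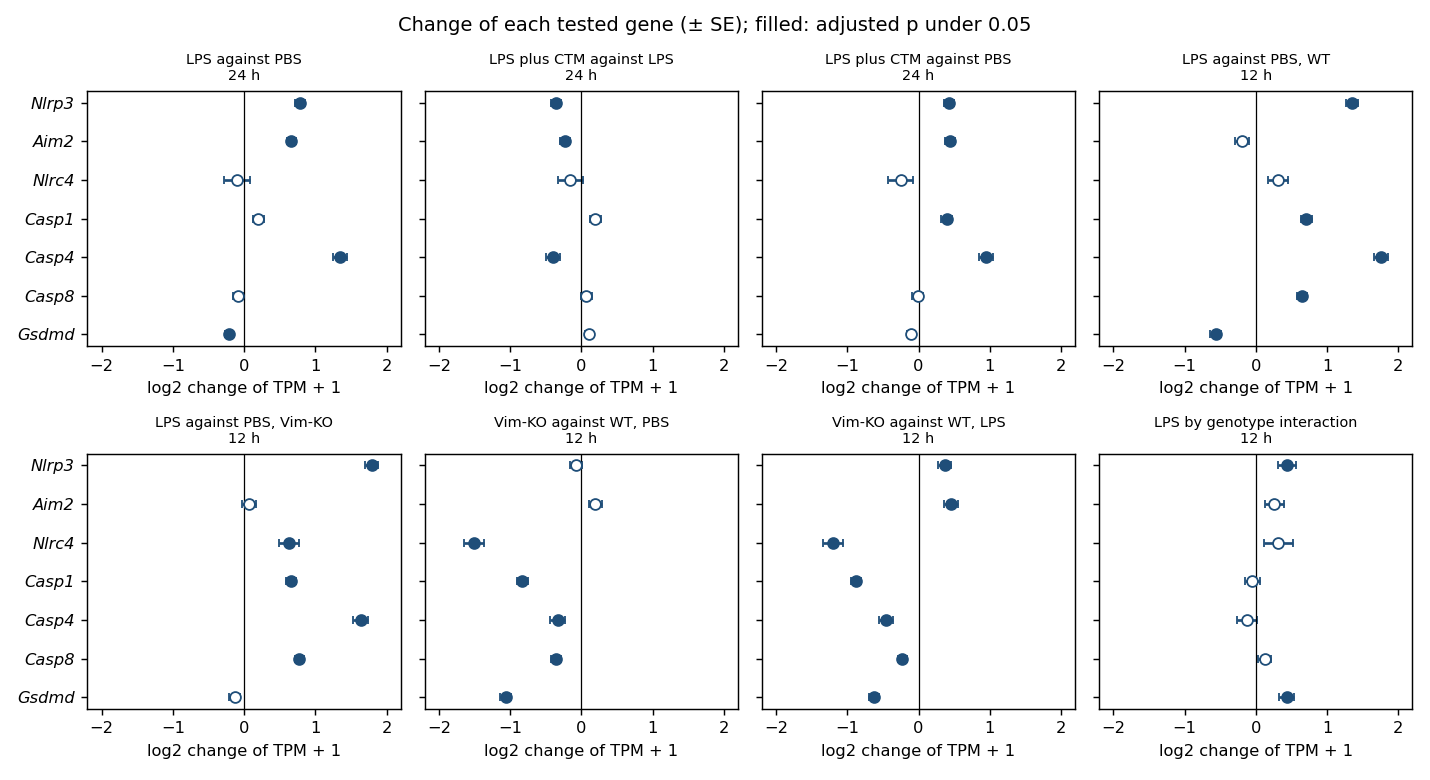
Change on log2(TPM + 1) (x axis) of the 7 tested genes (y axis) in the 8 comparisons (panels), with bars for the SE; filled points have an adjusted p under 0.05. Casp4 has the furthest point to the right in both WT comparisons of LPS with PBS, Nlrc4 and Gsdmd the furthest to the left in Vim-KO against WT with PBS; the Gsdmd points of LPS against PBS at 24 h and in Vim-KO cells change side after scaling, as does Aim2 in WT cells at 12 h.

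Vim-KO cells without LPS held less of 5 of the 7 genes than WT cells, and more of none, where 43% of all genes tested differed, 17.7% higher and 25.4% lower. The effector and a sensor were lowest relative to WT. Nlrc4 stood at 1.24 and 1.45 TPM against 6.23 and 5.18 TPM, 23.6% of the WT mean (log2 difference -1.51 ± 0.14, adjusted p = 1.01e-04). Gsdmd stood at 54.6 and 52.7 TPM against 115.5 and 110.5 TPM, 47.5% of the WT mean (-1.06 ± 0.076, adjusted p = 2.46e-05). Casp1 stood at 48.8 and 43.9 TPM against 83.9 and 82.0 TPM, 55.9% of the WT mean (-0.83 ± 0.074, adjusted p = 7.99e-05). In these 3 genes every Vim-KO library was below every WT library, and the share of all genes with such a separation was not counted.

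Smaller differences were found for the other caspases. Casp8 stood at 43.8 and 43.6 TPM in Vim-KO against 56.9 and 55.5 TPM in WT cells (-0.35 ± 0.067, adjusted p = 3.8e-03), and Casp4 at 8.14 and 9.39 TPM against 11.8 and 10.8 TPM (-0.33 ± 0.10, adjusted p = 0.0284). The call for Casp4 was lost without WT PBS library 1 (adjusted p = 0.16) or 2 (0.0571) and without Vim-KO PBS library 1 (0.16). Nlrp3 at 50.9 and 51.0 TPM against 53.9 and 53.3 TPM (-0.07 ± 0.088, adjusted p = 0.54) and Aim2 at 118.3 and 103.7 TPM against 88.9 and 104.7 TPM (0.20 ± 0.094, adjusted p = 0.13) did not pass.

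With LPS all 7 tested genes differed between the genotypes, 5 lower and 2 higher in Vim-KO cells, where 44.7% of all genes differed, 24.1% higher and 20.6% lower. The 2 that were higher are sensors. Nlrp3 stood at 196.0 and 163.3 TPM against 134.6 and 142.4 TPM in WT cells (0.37 ± 0.088, adjusted p = 0.0113), and Aim2 at 115.7 and 116.8 TPM against 86.3 and 82.6 TPM (0.46 ± 0.094, adjusted p = 5.76e-03). Nlrc4 stood at 2.85 and 2.40 TPM against 7.59 and 7.0 TPM, 36.0% of the WT mean (-1.20 ± 0.14, adjusted p = 3.51e-04). No Vim-KO library overlapped with a WT library in any of the 7 genes, but how often this held over all genes was not counted. Nlrp3 did not pass without WT LPS library 1 (adjusted p = 0.0666).

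The caspases and Gsdmd stayed lower under LPS. Casp1 stood at 70.7 and 76.8 TPM in Vim-KO against 138.5 and 134.0 TPM in WT cells, 54.1% of the WT mean (-0.88 ± 0.074, adjusted p = 6.31e-05). Gsdmd stood at 46.6 and 51.5 TPM against 73.1 and 79.3 TPM, 64.3% of the WT mean (-0.63 ± 0.076, adjusted p = 3.92e-04). Casp4 was at 72.3% (-0.45 ± 0.10, adjusted p = 7.69e-03) and Casp8 at 85.2% of the WT mean (-0.23 ± 0.067, adjusted p = 0.0256). Casp4 (0.0542) and Casp8 (0.14) lost their call without WT LPS library 2, and Casp8 (0.0884) without Vim-KO LPS library 2. Vim-KO cells with LPS thus held Nlrp3 above and Casp1, Casp4 and Gsdmd below the WT level in the same libraries.

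The change with LPS itself differed between the genotypes for 2 of the 7 genes, where 20.6% of all genes passed this interaction test, 13.7% with a positive and 6.96% with a negative difference. A positive difference means a larger rise or a smaller fall with LPS in Vim-KO than in WT cells. Nlrp3 rose by 1.35 in WT and 1.79 in Vim-KO cells, a difference of 0.44 ± 0.12 on the log2 scale (adjusted p = 0.0428). Gsdmd changed by -0.56 and -0.13, a difference of 0.43 ± 0.11 (adjusted p = 0.0262). Neither call was made after scaling, where the differences were 0.33 (adjusted p = 0.0636) and 0.32 (adjusted p = 0.0758). Neither passed without any 1 of the PBS libraries of either genotype or without WT LPS library 1, with an adjusted p from 0.0648 to 0.12 in these 5 fits. Without WT LPS library 2 Nlrp3 lost its call (0.0756). For Casp1 (-0.05 ± 0.11, adjusted p = 0.78), Casp4 (-0.12 ± 0.14, adjusted p = 0.60), Casp8 (0.13 ± 0.095, adjusted p = 0.39), Nlrc4 (0.32 ± 0.20, adjusted p = 0.30) and Aim2 (0.26 ± 0.13, adjusted p = 0.21) a difference was not shown.

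The relatives of the sensors were lower in resting Vim-KO cells almost throughout. Of the 13 that passed the filter, 12 were lower and none higher, next to 25.4% lower among all genes. Those with the largest differences were PYHIN genes, the family of Aim2. Ifi207 stood at a mean of 6.80 against 78.98 TPM (-3.36 ± 0.11), Ifi204 at 1.76 against 21.9 TPM (-3.05 ± 0.095) and Ifi203 at 7.27 against 51.98 TPM (-2.69 ± 0.11). Aim2, of the same family, was not lower, as given above. With LPS 4 of the 13 were lower and 1 higher as deposited, and 7 lower and 1 higher after scaling. In the interaction test 10 of the 13 had a positive difference (9 after scaling), next to 13.7% of all genes. The largest were Ifi207 (3.15 ± 0.15), Ifi203 (2.00 ± 0.16) and Ifi204 (1.78 ± 0.13). These differences start from the lower resting levels in Vim-KO cells. With LPS Ifi207 reached 78.6 TPM there, near the resting WT mean. Ifi204 (24.1 against 59.6 TPM) and Ifi203 (35.7 against 58.3 TPM) stayed below WT cells with LPS.

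Many genes in other pathway lists were also lower in Vim-KO cells. Of 21 triggers and regulators, 13 were lower and 1 higher with PBS, and 13 lower and 3 higher with LPS. Among all genes tested, 25.4% were lower and 17.7% higher with PBS, and 20.6% lower and 24.1% higher with LPS. The lists were chosen with earlier results of these data known, so their counts are a description only. Tlr4, the receptor of extracellular LPS, stood at 13.5 against 41.2 TPM with PBS (-1.54 ± 0.11) and at 5.41 against 15.99 TPM with LPS (-1.41 ± 0.11), and Gbp3, a guanylate-binding protein, at 1.45 against 9.59 TPM with PBS (-2.10 ± 0.16). Of 11 other caspase and cell death genes, 8 were lower with PBS and 6 with LPS, and none was higher. Ripk3, the kinase that activates MLKL, stood at 27.99 against 61.4 TPM with PBS (-1.11 ± 0.10) and at 44.1 against 94.0 TPM with LPS (-1.08 ± 0.10). No gene of these 11 passed the interaction test of limma, and 2 had an unadjusted p under 0.05.

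The cytokine genes and Il1rn were far lower in Vim-KO cells under LPS. All 4 cytokine genes were lower in Vim-KO than in WT cells with LPS. Il33 stood at 3.72 against 131 TPM (-4.80 ± 0.13), Il1a at 262 against 1858 TPM (-2.83 ± 0.12) and Il1b at 559.5 against 2750 TPM (-2.29 ± 0.070). In all 4 the interaction was negative. Il1rn stood at 18.1 against 2618 TPM (-7.09 ± 0.097), the largest difference among the inhibitors, of which 3 were lower and 2 higher of 7 with LPS. Ninj1 went from 69.8 to 103.0 TPM with LPS in WT cells (0.55 ± 0.066) and from 93.6 to 58.7 TPM in Vim-KO cells (-0.66 ± 0.066), an interaction of -1.22 ± 0.093 (adjusted p = 1.27e-04). It was the gene of 4 tested in the gasdermin and membrane rupture list that passed that test.

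**Figure D3:**
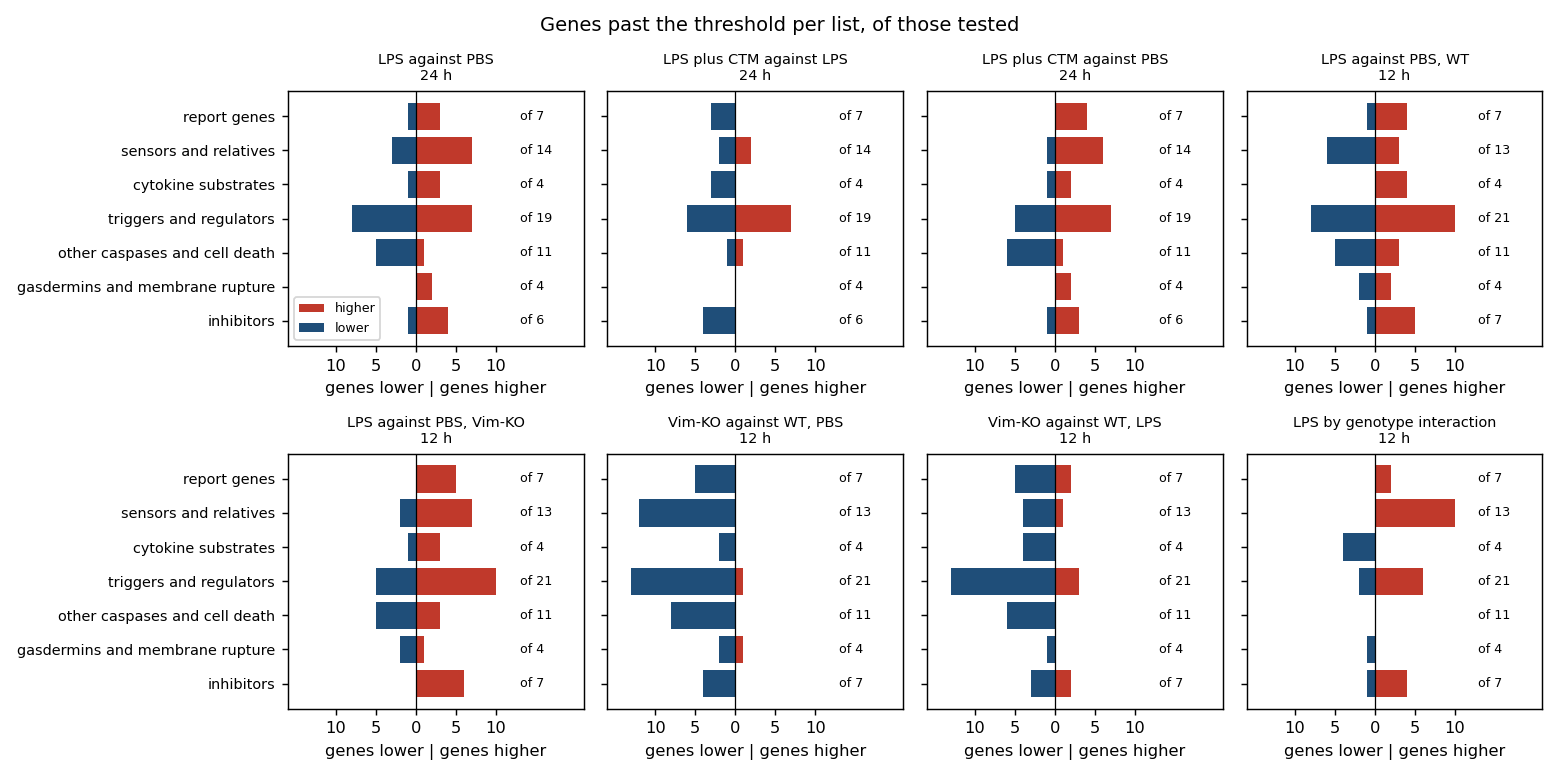
Number of genes past the adjusted p of 0.05 (x axis, higher to the right and lower to the left of 0) in the 9 genes of the set (report genes) and 6 pathway lists (y axis), per comparison (panels), with the number tested at the right. In resting Vim-KO cells 12 of 13 sensors and relatives are lower, and in the interaction test 10 of 13 have a positive difference, which is a larger rise or a smaller fall with LPS in Vim-KO cells; after scaling the set counts become 4 higher and 0 lower with LPS at 24 h, 5 and 0 in WT at 12 h and 0 and 0 in the interaction.

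With the group means of each experiment centred on their own average, so that no level is compared across experiments, Casp4 had the widest span over the 7 cell groups, 2.09 on the log2 scale, followed by Nlrc4 (1.82), Nlrp3 (1.79), Casp1 (1.54), Gsdmd (1.19), Casp8 (1.00) and Aim2 (0.67). The genes whose pattern of 7 group means was nearest to Nlrp3 were Bcl2a1d, Cd82 and Mettl6, with a root mean square difference of 0.12, 0.13 and 0.13 on the log2 scale after centring, against a median of 0.81 over 10148 genes. Those nearest to Casp4 were Riok3 (0.092), Rab11fip1 (0.093) and Cd14 (0.12), against a median of 0.92. Cd14 encodes the coreceptor that hands LPS to TLR4. It went from a mean of 753 to 2315 TPM with LPS at 24 h, and from 1280 to 4502 TPM in WT cells at 12 h.

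In liver, 1 library stands for each group, so there is no test and each difference compares 2 libraries. The liver values list only genes that differ at least 2-fold between the WT LPS and PBS libraries, apart from 234 with a 0 in one of them. So Nlrp3, Mefv, Casp1, Casp4 and Gsdmd are there because they differed in that pair. Aim2, Nlrc4, Pycard and Casp8 are not among the listed genes. Bulk RNA of liver cannot tell fewer cells of a type from less RNA per cell. RNA was extracted on 3 dates, 1 for the WT PBS, LPS and CTM livers, 1 for the depletion pair and 1 for TG2-KO, so genotype and extraction date cannot be told apart.

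All 5 listed genes were higher with LPS in WT liver, which the choice of listed genes requires of a change in either direction. Nlrp3 was 2.55 TPM with LPS and 0.15 TPM with PBS, Mefv 0.96 and 0.02 TPM, Casp1 2.17 and 0.79 TPM, Casp4 14.7 and 0.86 TPM, and Gsdmd 43.2 and 12.4 TPM. Gsdmd was the most abundant of them in both livers. On log2(TPM + 1) the differences were 1.63, 0.94, 0.82, 3.07 and 1.72, so 3 of the 5 passed 1, where 66.9% of the listed genes did, 20.6% higher and 46.3% lower. With a pseudocount of 0.1 all 5 passed 1, as they did in TG2-KO liver. Gsdmd was thus higher with LPS in liver, in 1 library against 1. In the cell line it was lower as deposited, past the threshold in WT cells only. After scaling its change in cells was 0.04 (WT, 24 h), -0.19 (WT, 12 h) and 0.13 (Vim-KO), with none past the threshold. The summed level of 6 listed neutrophil markers was 73.2 TPM with LPS and 1.76 TPM with PBS, and of 5 listed Kupffer cell markers 29.4 and 54.8 TPM. Among the latter Marco was higher with LPS, at 13.55 and 2.5 TPM, while Clec4f, Vsig4, Cd5l and Folr2 were lower. The part of such cells in the differences of the 5 genes was not tested.

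TG2-KO liver showed the same 3 of 5 past 1 with LPS against PBS, all higher. Of the listed genes 31.9% passed, 14.8% higher and 17.1% lower. The 5 genes are among the 1459 of 5298 listed genes that were higher with LPS in WT liver. That choice favours higher values with LPS here too, so the shares over all listed genes are no neutral background for them. Nlrp3 was 1.41 and 0.20 TPM, Casp4 12.9 and 1.21 TPM, and Gsdmd 42.1 and 15.0 TPM, with differences of 1.01, 2.65 and 1.43. Casp1 at 1.53 and 0.39 TPM (0.86) and Mefv at 0.74 and 0.03 TPM (0.76) stayed under 1. Between TG2-KO and WT liver with LPS none of the 5 passed 1, where 6.3% of the listed genes did (4.27% higher, 2.04% lower), and the differences ran from -0.56 for Nlrp3 to -0.04 for Gsdmd. With PBS they ran from -0.36 for Casp1 to 0.26 for Gsdmd, again with none past 1, where 7.7% did (2.94% higher, 4.76% lower). The WT libraries in these comparisons are the pair by which the 5 genes came to be listed, as high with LPS and low with PBS. That choice favours negative differences with LPS and positive ones with PBS, so their signs cannot be credited to the genotype. Neutrophil markers summed to 29.7 TPM in the TG2-KO PBS liver and 137 TPM in the TG2-KO LPS liver.

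CTM given with LPS gave lower liver values for all 5 genes than LPS alone, none of them by 1 or more, where 1.59% of the listed genes passed (0.698% higher, 0.887% lower). The LPS library used here is the one whose high values brought the 5 genes into the listed set. That choice favours lower values in any other library, so the shared direction cannot be credited to CTM. Gsdmd was 23.3 TPM with CTM and 43.2 TPM without (-0.87), and Casp1 1.14 and 2.17 TPM (-0.57). Mefv at 0.68 TPM (-0.22), Nlrp3 at 2.35 TPM (-0.08) and Casp4 at 14.1 TPM (-0.06) were closer to LPS alone. In cells the changes of Gsdmd and Casp1 with CTM were positive, with neither past the threshold, while Nlrp3 and Casp4 were lower there. The median gene moved by 0.07 in that comparison and Gsdmd was at 0.02 after scaling. An opposite direction in cells and liver is therefore not shown for Gsdmd. Tissue, time and dose differ between these comparisons, and no test joins them.

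Macrophage depletion separated the genes of the set. In the depleted LPS liver Nlrp3 was 0.31 TPM and in the non-depleted one 2.19 TPM, 14.2% of that level, and Mefv was 0.43 and 2.01 TPM, 21.4%. These 2 were lower by 1.28 and 1.07 on log2(TPM + 1), where 8.83% of the listed genes passed 1, 2.59% higher and 6.25% lower. Casp1 at 1.71 and 2.01 TPM (-0.15), Casp4 at 10.9 and 14.4 TPM (-0.37) and Gsdmd at 35.5 and 48.9 TPM (-0.45) stayed under 1. So in this pair the 2 sensors were lower by more than 1 and the 2 caspases and the effector were not. The WT LPS liver outside the pair held Nlrp3 at 2.55 TPM and Mefv at 0.96 TPM. The Mefv level thus differed between LPS livers not labelled as depleted, and its difference rests on a single library at a low level.

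Cell markers moved in the same pair of livers. The 5 listed Kupffer cell markers summed to 10.4 TPM with depletion and 68.5 TPM without, with Clec4f at 0.21 and 12.3 TPM, Vsig4 at 0.12 and 6.42 TPM and Folr2 at 0.23 and 5.56 TPM. Of 7 listed macrophage markers, Cd14 was higher with depletion, at 540.4 and 290.7 TPM, and the other 6 were lower by unequal amounts. Mertk was nearly level at 1.27 and 1.3 TPM, Itgam was 1.69 and 2.75 TPM and Ptprc 0.77 and 1.92 TPM. Csf1r was 0.66 and 5.04 TPM, Adgre1 1.44 and 4.9 TPM and Lyz2 13.9 and 40.1 TPM. The 6 listed neutrophil markers summed to 197 and 111 TPM, most of it S100a8 (85.1 and 45.1 TPM) and S100a9 (95.0 and 45.1 TPM), while Csf3r was 2.87 and 9.21 TPM and Cxcr2 0.37 and 1.34 TPM. Among the cytokine genes, Il1a was 0.96 and 20.6 TPM and Il1b 2.34 and 23.1 TPM. The inhibitor Tnfaip3 was 3.89 and 25.4 TPM. Of 11 other listed sensors and relatives none was lower or higher by 1 on log2(TPM + 1). That scale compresses low levels, and Nod2 at 0.11 and 0.56 TPM and Nlrp1a at 0.15 and 0.61 TPM were at 19.6% and 24.6% of the non-depleted level, near the shares of Nlrp3 and Mefv. Whether Nlrp3 and Mefv were lower through the loss of these cells was not tested.

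**Figure D4:**
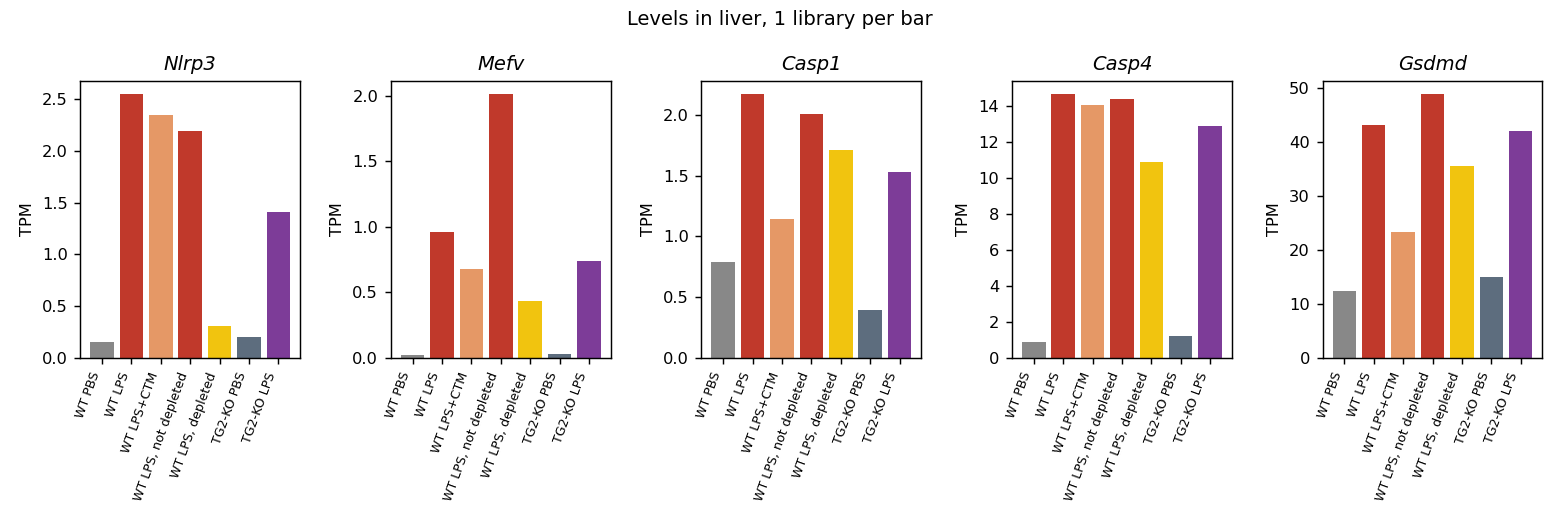
Level in TPM (y axis, linear from 0, own scale per panel) of the 5 listed genes in the 7 liver libraries (x axis), 1 library per bar and no error bars since no group has replicates. Nlrp3 and Mefv are low in the macrophage-depleted LPS liver (0.31 and 0.43 TPM) beside the non-depleted one (2.19 and 2.01 TPM), while Casp1, Casp4 and Gsdmd are at 1.71, 10.9 and 35.5 TPM beside 2.01, 14.4 and 48.9 TPM.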

How the data were processed

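The authors deposited TPM for each gene symbol. The submitters' processing notes name Salmon and the builds mm10 and GRCm38; versions, annotation and strand setting are not given in the sources used here. The cell values list 35550 genes and sum to between 993386.5 and 999190.5 TPM per library. The liver values list 5298 genes and sum to between 153179.8 and 336332.5 TPM. Groups follow the labels. At 24 h the LPS and CTM columns carry other numbers than the labels, so only their group is known.

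Genes averaging 1 TPM or more across an experiment were fitted with limma 3.58.1 (R 4.3.3) on log2(TPM + 1), in 1 model with a mean-variance trend per experiment (all groups sharing the spread), and Benjamini-Hochberg adjustment over all genes tested at a threshold of 0.05. A log2 change of TPM + 1 understates the change of low genes. The interaction subtracts the LPS change in WT from that in Vim-KO cells. Liver differences of log2(TPM + 1) have no test and are counted from 1. The genes of the set and the pathway lists were chosen with earlier results of these data known. The text names the 9 genes and part of up to 3 genes per list and comparison with the largest change past the threshold and no overlap of groups. Nlrp3 and the gene of widest span were compared with all genes by the root mean square difference of centred group means. The fits were repeated with a pseudocount of 0.1, with no filter or one at 5 TPM, and with median-of-ratios scaling, no trend, a fit on the compared samples alone, a replicate block, leaving out each library and, for liver, a minimum level of 2 TPM. Positions are from a GRCm38 annotation and promoters from RefSeq (GRCm38.p6). Tables were handled with pandas 2.3.3 and drawn with matplotlib 3.10.9.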

Additional observations from a re-analysis of the deposited data

Results flagged for a closer look

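In the cell line the LPS change of Nlrp3 was larger in Vim-KO than in WT cells by 0.44 on the log2 scale, in the interaction test of limma (adjusted p = 0.0428). For Gsdmd that difference was 0.43 (adjusted p = 0.0262), with a fall in WT cells and no change past the threshold in Vim-KO cells. Both values sit just past the threshold, and neither passed after scaling.

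The change with LPS in WT cells had opposite signs at 24 h and 12 h for 2 genes. Aim2 changed by 0.67 at 24 h and by -0.19 at 12 h, where the second did not pass and was 0.18 after scaling. Casp8 changed by -0.0803 at 24 h, where it did not pass and was 0.16 after scaling, and by 0.65 at 12 h. The difference between the times was not tested, since the experiments were extracted on different dates.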

How the results depend on the processing

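Of 56 results for single genes of the set in the cells, 35 passed the threshold, and 24 of these kept their direction and their call in every alternative run. Depth could not be examined, since TPM keep no counts, and 2 libraries per group limit each test.

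Counts of genes changed in the set moved by over 1.5 times in these cases. For CTM with LPS against LPS (3 as reported) the count was 1 without a filter and 0 to 2 when each library was left out. For the interaction (2 as reported) it was 1 without a filter, 0 after scaling, 1 without the trend, 1 with the replicate block and 0 to 2 when each library was left out. In liver, LPS against PBS gave 5 genes past 1 in WT and 5 in TG2-KO with a pseudocount of 0.1, against 3 in each.

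Signs turned after scaling for Nlrc4 (0.10), Casp8 (0.16) and Gsdmd (0.039) with LPS at 24 h, for Casp8 with CTM against LPS (-0.0146), for Casp8 (0.15) and Gsdmd (0.0608) with CTM against PBS, for Aim2 in WT (0.18) and for Gsdmd in Vim-KO cells (0.13) with LPS at 12 h. The scaling by construction removes the shift of the median gene. Leaving out each library gave -0.24 to 0.0436 for Nlrc4 with LPS at 24 h (turned without LPS library 3), -0.0572 to 0.0338 for Casp8 with CTM against PBS (turned without PBS library 1 or CTM library 2), -0.0251 to 0.16 for Aim2 with LPS in Vim-KO cells (turned without Vim-KO PBS library 2) and -0.12 to 0.0226 for the Casp1 interaction (turned without Vim-KO PBS or LPS library 1). The cause was not tested.

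Same-numbered libraries did not deviate together (r across genes from -0.22 to 0.098), so the numbers are not taken as pairs. With the replicate block, Aim2 in CTM against LPS (adjusted p = 0.0607) and the Nlrp3 interaction (adjusted p = 0.0662) lost their call. Over all genes, 2823 calls for CTM against LPS became 1153 without CTM library 3, 1552 without CTM library 2 and 1794 without LPS library 3. In Vim-KO against WT with PBS, 4782 became 3186 without WT PBS library 1. In the interaction, 2292 became as few as 1203 without WT PBS library 1. Of 1786 alternative values for pathway genes named by the rule, 1745 kept direction and call, 41 lost the call and 0 turned.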
